A study of Mus musculus with 2 samples.

Results

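The genes described here are the members of cytochrome P450 families 1 to 3, chosen by gene symbol: each symbol that begins with Cyp1, Cyp2 or Cyp3 and continues with 1 letter and a number. The rule found 58 genes among the 27998 in the deposited tables, and 37 of them had at least 50 unique molecular identifiers (UMIs, the counted molecules) over both libraries. Nuclear RNA from liver was profiled by droplet sequencing of transcript 3' ends in 12-week-old mice of the C57BL/6 background 48 h after PHx (partial hepatectomy, removal of part of the liver). There was 1 library titled HKO and 1 titled WT, each labelled replicate 1. The series' design text names Sox9f/f and Sox9HKO mice. It does not spell out HKO or name the Cre driver, and the sex of the animals is not stated in the labels used. With 1 library per group there is no replicate check, so every HKO and WT difference below compares these libraries and no p-value is given. Intervals in brackets are exact 95% intervals and cover counting error only.

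Cytochrome P450 enzymes are haem proteins of the endoplasmic reticulum that insert an oxygen atom into drugs, toxins, steroids, fatty acids and bile acids, taking electrons from P450 oxidoreductase. Families 1 to 3 carry out most of the liver's foreign-compound metabolism, and many of their genes are induced through the receptors AhR, CAR and PXR. Liver lobules are zoned: pericentral hepatocytes, around the central vein, are known for high P450 activity, while periportal hepatocytes carry out urea synthesis and gluconeogenesis.

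Clustering used no gene of these families. Hepatocyte-like nuclei were the clusters with at least 3 hepatocyte markers above the other named classes and fewer than 3 markers of any other class. Of 15 hepatocyte markers, 14, 14 and 9 were above the other classes in the 3 clusters of HKO, and 15, 13 and 4 in those of WT. That count does not set them apart, since it was also 14 in the main endothelial-like cluster of HKO and 15 in that of WT, so the name rests on the lack of other markers. The nuclei numbered 8656 in HKO and 10924 in WT, with medians of 3913 and 3525.5 UMIs, and levels are given as counts scaled to the UMI total of that class (CPM). Sox9, the gene named in the design, had 5.79 CPM (5.05 to 6.61) there in HKO against 11.4 CPM (10.4 to 12.4) in WT. A 3' tag may lie outside the deleted part, so this level does not check the label. The libraries had 70 barcodes in common, and doublets were not removed here. RNA of these genes was present in every cell class, as free RNA in droplets can be. The summed level of the 37 genes in endothelial-like nuclei reached 83.8% (82.9 to 84.7) of that in hepatocyte-like nuclei for HKO and 87.98% (87.1 to 88.9) for WT. In macrophage-like nuclei it was 79.6% and 82.2%, and in stellate-like nuclei 74.8% and 79.5%. In 7 named classes other than hepatocyte-like, 0 of the 37 genes stood above the hepatocyte-like level beyond counting error in both libraries. The values below are therefore those of hepatocyte-like nuclei together with free RNA of the same library, and which part comes from the nuclei was not tested. The share of mitochondrial UMIs also moved with the library, at a median of 0.0742% in hepatocyte-like nuclei of HKO and 0.298% in those of WT.

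The P450 genes as a group were lower in HKO. Their summed level was 5548 CPM in HKO against 9089 CPM in WT, a ratio of 0.610 (0.607 to 0.614). Of the 37 genes, 11 were at least 2-fold lower in HKO, against 6.59% of the 15003 genes with at least 50 UMIs. At least 2-fold higher were 3, against 5.03% of those genes, and 23 lay between. The 3 higher genes, Cyp2c39, Cyp2a22 and Cyp2b10, were all under 10 CPM in both libraries. The median log2 ratio of HKO over WT was -0.68 for the P450 genes and 0.13 for all 15003 genes, and 8 of the 37 were above 0, against 60.6% of all genes. Other transcripts moved with the library as well: Alb, the abundant albumin mRNA of hepatocytes, had a log2 ratio of -1.35, at 2536 CPM in HKO against 6478 CPM in WT, and the nuclear RNA Malat1 had 0.41. The landmark genes used below to order nuclei by zone also differed. The 16 pericentral ones had a summed ratio of HKO over WT of 0.637 (0.631 to 0.642), with 13 lower in HKO and 3 higher. The 16 periportal ones had 1.24 (1.23 to 1.24), with 10 higher and 6 lower. The hepatocyte-like cluster with cell division genes among its leading genes held 517 nuclei in HKO and 960 in WT. The part of these differences in the P450 ratios was not tested. The share of members past 2-fold downward was above the background share, and the upward share close to it.

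**Figure D1:**
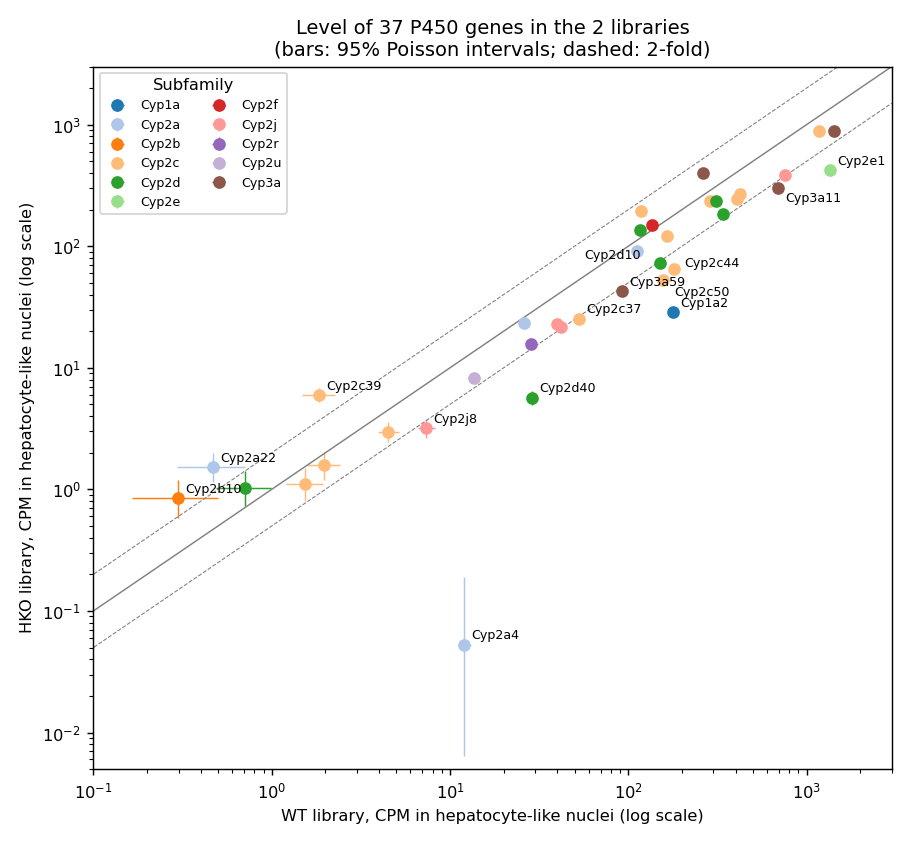
Level of each of the 37 P450 genes in hepatocyte-like nuclei of the WT library (x axis, CPM, log scale) and the HKO library (y axis, CPM, log scale), with 95% Poisson intervals as bars, equal levels as the solid line and 2-fold differences as dashed lines. Most points lie under the solid line, 11 genes lie beyond the lower dashed line, and Cyp2a4 stands far below it.

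Cyp2a4, which hydroxylates steroids and is known as a female-predominant gene of mouse liver, had the lowest library ratio of all 15003 genes. It had 3 UMIs in the whole HKO library and 770 in the whole WT library. In hepatocyte-like nuclei its level was 0.0526 CPM (0.00637 to 0.190) in HKO against 12.0 CPM (11.02 to 13.03) in WT, from 2 and 561 UMIs, so WT was 228 times higher (62.8 to 1887). After thinning each nucleus to 2000 UMIs, 1 of 7674 HKO nuclei and 269 of 10722 WT nuclei held a Cyp2a4 UMI, or 0.0130% and 2.51% of nuclei. Endothelial-like nuclei showed the same contrast, with 0 of 1227 thinned nuclei in HKO and 21 of 1107 in WT. The 0 allows a share of up to 0.244% taken as 3 counts of the total, or 0.300% by the Clopper-Pearson limit. Thinning left out 1127 endothelial-like nuclei of HKO and 22 of WT, which had fewer than 2000 UMIs. Its overlapping antisense neighbour RP23-267I20.3 had 17 UMIs in HKO and 120 in WT, a log2 ratio of -2.62, and the labels do not say whether strand was used to tell their reads apart.

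Cyp2a5, the coumarin hydroxylase of the same subfamily, was at nearly the same level in the libraries. Its levels were 23.4 CPM (21.9 to 25.0) in HKO against 25.9 CPM (24.5 to 27.4) in WT, a ratio of 0.903 (0.827 to 0.986). The upstream regions of the pair are shown because the genes are near-identical copies whose library ratios were far apart. Over 249 aligned bases of the 250 before each start, 245 were identical, or 98.4%. Sequences are from RefSeq promoters on GRCm38.p6, 5' to 3' on the gene's strand, with capitals for the bases that differ or have no partner in the other gene.
Cyp2a4 (chr7:26306942-26307191, plus strand): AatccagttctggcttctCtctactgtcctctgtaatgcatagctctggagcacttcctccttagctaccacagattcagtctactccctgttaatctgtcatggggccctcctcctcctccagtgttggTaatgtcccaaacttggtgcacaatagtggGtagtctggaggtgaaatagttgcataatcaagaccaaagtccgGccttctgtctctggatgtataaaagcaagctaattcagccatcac
Cyp2a5 (chr7:26835089-26835338, plus strand): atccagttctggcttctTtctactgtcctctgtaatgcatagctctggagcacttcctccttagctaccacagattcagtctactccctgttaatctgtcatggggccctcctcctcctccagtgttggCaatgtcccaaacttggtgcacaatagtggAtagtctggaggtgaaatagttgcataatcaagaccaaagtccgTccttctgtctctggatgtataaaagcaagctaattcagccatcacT
Both hold the letters TATAAA near the start. At the 3' ends of the transcripts, 10.5% of the 90-base words in the last 500 bases of Cyp2a4 and 22.6% of those of Cyp2a5 also occur in another gene's transcript. How the authors' counting treated reads that fit both copies is not described in the labels, so the split of counts between these copies is uncertain.

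The other members of the Cyp2a subfamily went separate ways. Cyp2a12, a steroid hydroxylase, had 91.7 CPM (88.7 to 94.8) in HKO against 113 CPM (109 to 116) in WT. Cyp2a22 was higher in HKO, at 1.53 CPM (1.16 to 1.97) against 0.470 CPM (0.295 to 0.712), a ratio of 3.24 (1.96 to 5.57). That value rests on 58 and 22 UMIs.

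Cyp1a2, which metabolises caffeine and aromatic amines and is a classical AhR target, had the next lowest ratio among the 37 members and was number 82 from the lowest of the 15003 genes. Its level was 28.5 CPM (26.8 to 30.2) in HKO against 178 CPM (174 to 182) in WT, so WT was 6.25 times higher (5.86 to 6.66). Among thinned hepatocyte-like nuclei 5.75% (5.24 to 6.29) held a Cyp1a2 UMI in HKO and 30.004% (29.1 to 30.9) in WT. The share in thinned endothelial-like nuclei was 4.65% (3.54 to 5.98) and 28.7% (26.1 to 31.5), so the shares in the 2 classes overlapped within counting error in HKO and in WT. The other AhR targets, Cyp1a1 with 24 UMIs and Cyp1b1 with 10, were under the minimum of 50.

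Cyp2e1, which oxidises ethanol, acetone and paracetamol, showed the same direction at a high count. It had 420 CPM (413 to 426) in HKO against 1354 CPM (1344 to 1365) in WT, so WT was 3.23 times higher (3.17 to 3.28). A Cyp2e1 UMI was found in 49.8% of thinned hepatocyte-like nuclei of HKO and 89.9% of those of WT.

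In the Cyp2c subfamily, whose enzymes oxidise arachidonic acid, steroids and many drugs, 13 of 15 genes reached the minimum. At least 2-fold lower in HKO were 3 of them, against 6.59% of all genes. Cyp2c50 had 52.7 CPM (50.4 to 55.1) in HKO against 157 CPM (154 to 161) in WT, 2.99 times higher in WT. Cyp2c44, an epoxygenase of arachidonic acid, had 65.3 CPM (62.8 to 68.0) and 180 CPM (176 to 184), 2.75 times higher in WT, and Cyp2c37 had 25.3 CPM and 53.0 CPM. Going the other way, Cyp2c38 had 193 CPM (189 to 197) in HKO against 117 CPM (114 to 121) in WT, a ratio of 1.64 (1.59 to 1.70). Its chromosomal neighbour Cyp2c39, a retinoic acid hydroxylase, had 5.95 CPM (5.20 to 6.77) and 1.84 CPM (1.47 to 2.27), a ratio of 3.23 (2.51 to 4.19). The remaining 8 genes had log2 ratios from -0.73 (Cyp2c29) to -0.28 (Cyp2c68). Cyp2c70, the enzyme that makes muricholic acids in mice and the Cyp2c gene of most UMIs, was among them, with 893 CPM (883 to 902) in HKO against 1180 CPM (1170 to 1190) in WT. For Cyp2c40 and Cyp2c69, with 60 and 42 UMIs in HKO, the interval of the ratio included 1.

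The Cyp2d genes, related to human CYP2D6, gave a median log2 ratio of -0.65 over 6 of 8 genes. Cyp2d40 had 5.68 CPM (4.95 to 6.49) in HKO against 28.8 CPM (27.3 to 30.4) in WT, 5.07 times higher in WT (4.39 to 5.88). Cyp2d10 was 2.06 times higher in WT (1.97 to 2.15). In Cyp2d22 the order was the opposite, with 136 CPM (133 to 140) in HKO against 116 CPM (113 to 119) in WT, a ratio of 1.18 (1.14 to 1.23). Cyp2d9, known as male-predominant and the Cyp2d gene of most UMIs, had 235 CPM and 311 CPM, a log2 ratio of -0.41, and Cyp2d26 had a log2 ratio of -0.89. Cyp2d11 had 39 and 33 UMIs in hepatocyte-like nuclei and an interval that included 1.

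All 4 measured Cyp2j genes, epoxygenases of fatty acids, were lower in HKO, with log2 ratios from -1.21 to -0.79. Cyp2j5 had 387 CPM (381 to 393) in HKO against 754 CPM (746 to 762) in WT, and Cyp2j8 had 3.18 CPM and 7.38 CPM. The Cyp3a genes, which metabolise the widest range of drugs and are PXR targets, were split. Cyp3a11 had 304 CPM (298 to 309) in HKO against 687 CPM (680 to 695) in WT, 2.26 times higher in WT. Cyp3a59 was 2.16 times higher in WT, and Cyp3a25, with 883 CPM and 1416 CPM, 1.60 times. Cyp3a13, which lies apart from the other Cyp3a genes on chromosome 5, was higher in HKO, at 399 CPM (393 to 406) against 263 CPM (259 to 268), a ratio of 1.52 (1.48 to 1.55).

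Single members of other subfamilies completed the set. Cyp2b10, the usual reporter of CAR activity, had 0.842 CPM (0.576 to 1.19) in HKO against 0.299 CPM (0.164 to 0.502) in WT, a ratio of 2.81 (1.46 to 5.70) from 32 and 14 UMIs. At clustering resolution 1, with fewer nuclei named hepatocyte-like, its log2 ratio was 0.76 in place of 1.46, under 2-fold. Cyp2f2, which activates naphthalene, was nearly equal, with 150 CPM (146 to 154) and 136 CPM (133 to 139). Cyp2r1, a vitamin D 25-hydroxylase, and Cyp2u1, a fatty acid hydroxylase, had log2 ratios of -0.87 and -0.71.

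**Figure D2:**
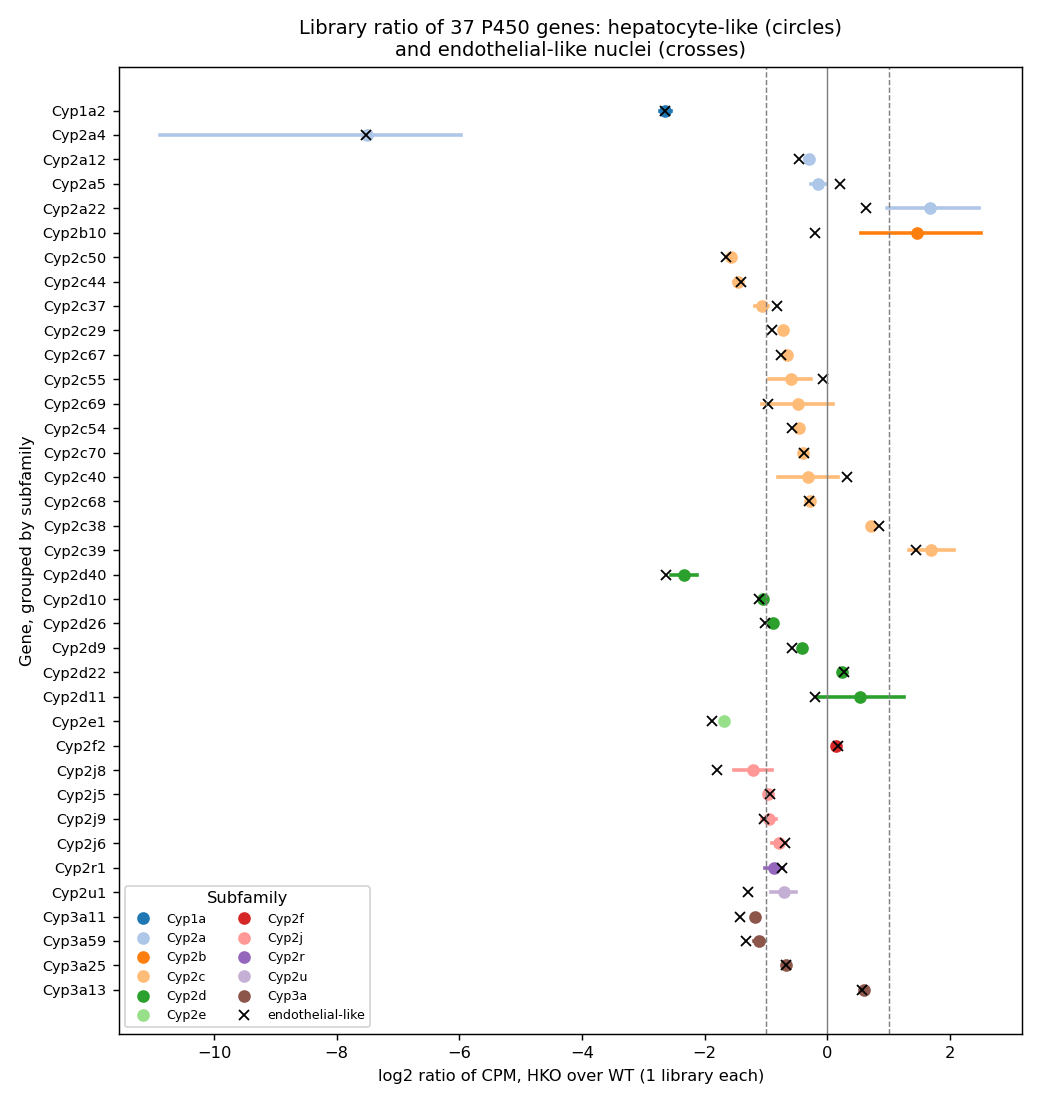
Log2 ratio of CPM, HKO over WT (x axis), for each of the 37 genes (y axis, grouped by subfamily). Circles are hepatocyte-like nuclei with 95% counting intervals as bars, crosses are endothelial-like nuclei, and dashed lines mark 2-fold; in most genes the cross lies close to the circle, and the Cyp2a4 pair lies at the far left.

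The library ratio was much the same outside hepatocyte-like nuclei. In endothelial-like nuclei the median log2 ratio of the 37 genes was -0.74, with 13 genes at least 2-fold lower, against 7.41% of the 15003 genes, and 1 at least 2-fold higher, against 6.64%. The median of all genes there was 0.13. Of the 11 genes 2-fold lower in hepatocyte-like nuclei, 10 were 2-fold lower there too. The log2 ratio in endothelial-like nuclei was -2.65 for Cyp1a2, -1.88 for Cyp2e1, 0.85 for Cyp2c38 and 0.56 for Cyp3a13. Cyp2b10 and Cyp2a22, the genes of fewest UMIs among the 3 higher in HKO, had -0.20 and 0.63 there, from at most 11 UMIs per library.

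A cluster led by mitochondrial genes was left without a cell type name. It held 33 barcodes in HKO and 528 in WT, with 4.42% and 4.82% mitochondrial UMIs. In its WT barcodes some P450 genes stood above the hepatocyte-like level of the same library and others below it. Cyp3a11 was 2.98 times higher (2.88 to 3.09), Cyp2a5 3.01 times (2.49 to 3.61), Cyp1a2 2.25 times (2.08 to 2.44) and Cyp2e1 1.98 times (1.92 to 2.04). Cyp3a25 was at 0.590 of that level (0.559 to 0.622), Cyp2j5 at 0.637 (0.593 to 0.683) and Cyp2c38 at 0.638 (0.530 to 0.762). The median log2 ratio of this cluster over hepatocyte-like nuclei in WT was 0.91 for the 11 genes 2-fold lower in HKO and 0.06 for the other 26. Across all 37 genes, this log2 ratio and the HKO over WT log2 ratio gave r = -0.155 (Spearman's rho -0.178). Across the 28 genes of at least 1000 UMIs over both libraries, r was -0.400 (rho -0.343). Across 7969 genes of at least 1000 UMIs in hepatocyte-like nuclei, r was -0.367 (rho -0.248). Both quantities are divided by the WT hepatocyte-like level and so are not independent. An error in that level would move both the same way. The relation is a description of these libraries. Mitochondrial transcripts themselves had HKO over WT log2 ratios of -0.97 to -1.69. Whether the lower mitochondrial share in HKO plays a part in the P450 ratios was not tested.

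Zone was measured within each library. Hepatocyte-like nuclei of at least 2000 UMIs were ordered by a score from 16 pericentral and 16 periportal landmark genes, all outside these families. They were divided into 5 bins of equal size. Scores were scaled and bins cut in each library on its own, so a bin need not be the same lobule position in both. The pericentral landmarks summed to 840 CPM in the periportal bin of HKO and 1629 CPM in that of WT. In the pericentral bin they summed to 4558 CPM and 6088 CPM. Pericentral genes outside the score, 8 in number, were all higher in the pericentral bin of both libraries, and 8 periportal genes all lower. Of these, 3 pericentral and 2 periportal genes passed 2-fold in both libraries. The log2 ratios of smallest size were 0.27 and -0.008, both in HKO. Of the 37 P450 genes, 14 were at least 2-fold higher in the pericentral bin in both libraries, against 1.85% of all 15003 genes. At least 2-fold higher in the periportal bin of both libraries was 1, Cyp2f2, against 1.43%. In HKO alone 15 genes were at least 2-fold pericentral (background 5.41%) and in WT alone 14 (4.73%). The extra gene of HKO was Cyp1a2. At least 2-fold periportal were 2 genes in each library, against 4.51% in HKO and 4.1% in WT: Cyp2f2 in both, with Cyp2a12 in HKO and Cyp2b10, on 7 UMIs, in WT. Above 0 were 24 genes in HKO and 24 in WT, against 53.0% and 52.1% of all genes, and 29 had the same sign in both libraries, against 60.2%. The HKO value of Cyp2a4 in these counts rests on 0 UMIs in both bins. Over the 28 genes of at least 1000 UMIs, the zone log2 ratios of the libraries gave r = 0.969 (rho 0.935). Over the 9354 genes with as many UMIs, r was 0.708 (rho 0.401). These values depend on how widely the zone ratios spread, which was not matched between the 28 genes and all genes.

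**Figure D3:**
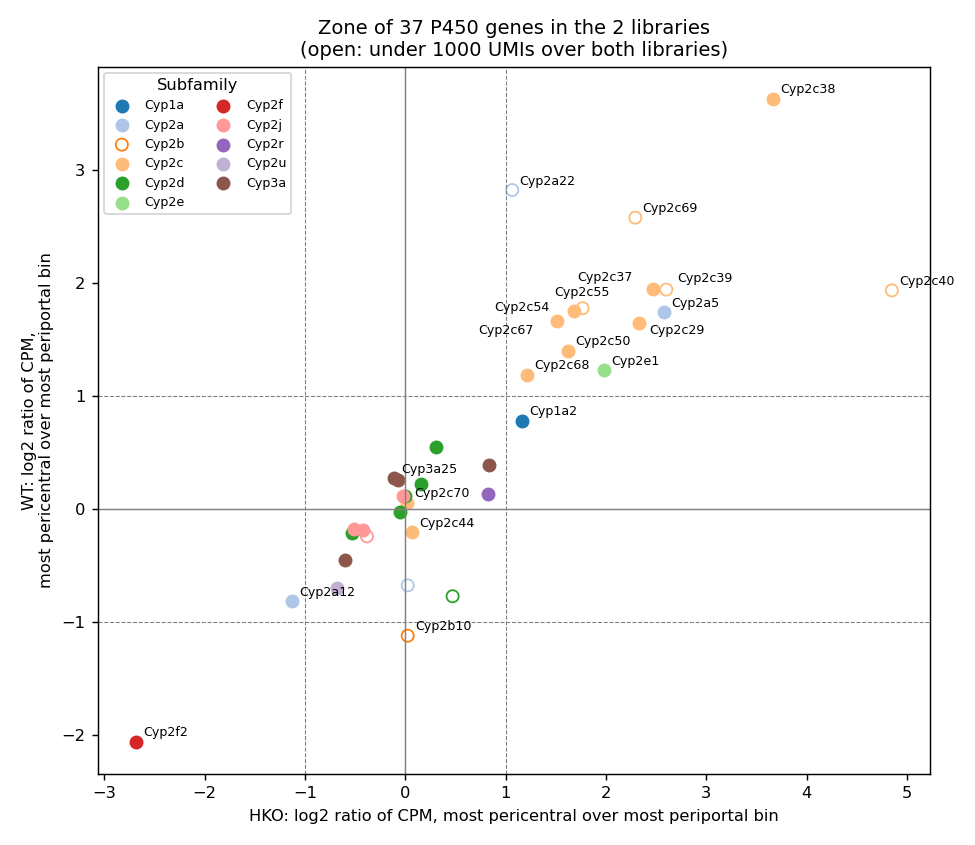
Zone log2 ratio of CPM, most pericentral over most periportal bin of hepatocyte-like nuclei, in HKO (x axis) and WT (y axis) for 37 P450 genes, coloured by subfamily, with open circles for genes under 1000 UMIs and dashed lines at 2-fold. The Cyp2c genes fill the upper right, apart from Cyp2c70 and Cyp2c44 near 0, and Cyp2f2 lies alone at the lower left.

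Cyp2c genes made up 11 of the 14. Cyp2c38 was the most strongly zoned member with more than 1000 UMIs. It went from 45.2 CPM in the periportal bin to 572 CPM in the pericentral bin of HKO, 12.6 times (11.3 to 14.2), and from 29.4 CPM to 365 CPM in WT, 12.4 times (11.0 to 14.1). Its gradient was steep at the pericentral end in both libraries, and the library ratio was similar in the outer bins, with log2 values of 0.62 and 0.65. Cyp2c29, a CAR target, was 5.01 times higher pericentrally (4.61 to 5.46) in HKO and 3.13 times (2.98 to 3.29) in WT, and Cyp2c37 5.56 times (4.33 to 7.22) and 3.87 times (3.38 to 4.44). Cyp2c67, Cyp2c68, Cyp2c54 and Cyp2c50 had pericentral folds between 2.28 and 3.36 in the libraries. Among the genes of low count, Cyp2c40 had 42 pericentral UMIs and 1 periportal UMI in HKO, a ratio of 42.7 (7.25 to 1725), and 43 and 11 in WT, a ratio of 3.95 (2.003 to 8.49). Cyp2c39 had ratios of 6.24 (3.52 to 11.9) and 4.04 (1.72 to 11.0), and Cyp2c69 had 5.28 (1.996 to 17.6) and 6.47 (2.50 to 21.3). Cyp2c55 had 3.51 (1.76 to 7.61) and 3.49 (2.09 to 6.05). In Cyp2c40, Cyp2c67, Cyp2c68 and Cyp2c69, 23.1% to 35.5% of the 90-base words at the 3' end occur in another gene's transcript, so their counts may be mixed.

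The exceptions were Cyp2c70 and Cyp2c44. Cyp2c70 had 867 CPM periportally and 876 CPM pericentrally in HKO, a ratio of 1.01 (0.975 to 1.05), and 1098 CPM and 1140 CPM in WT, a ratio of 1.04 (1.01 to 1.07). It is the last gene of the Cyp2c cluster, at chr19:40153353-40187333 on the minus strand, and the other 11 measured genes of the cluster all lay on the pericentral side. Its nearest measured neighbour Cyp2c50, at chr19:40089688-40113950, had ratios of 3.08 (2.61 to 3.64) and 2.64 (2.44 to 2.85). Cyp2c44 lies outside the cluster at chr19:44005022-44029208 and had ratios of 1.05 (0.920 to 1.19) and 0.866 (0.809 to 0.927).

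**Figure D4:**
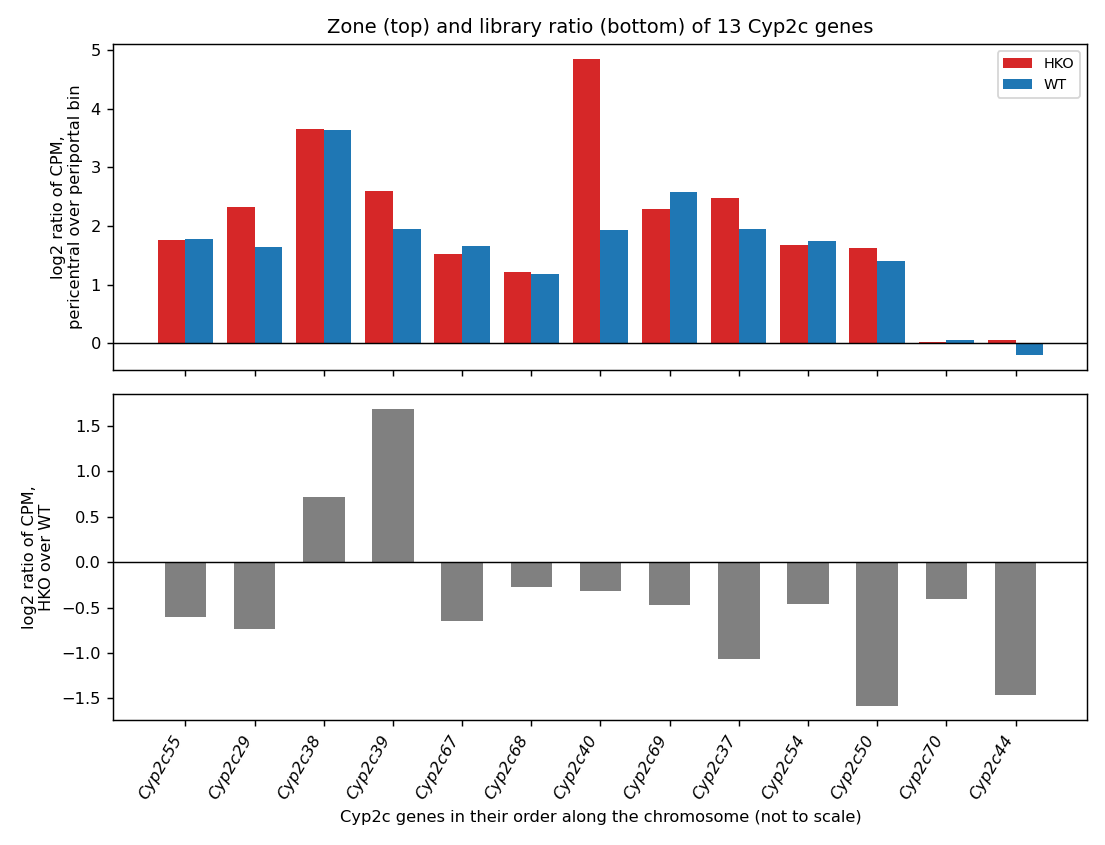
The 13 measured Cyp2c genes in chromosomal order (x axis, not to scale), with the zone log2 ratio in HKO (red) and WT (blue) above and the HKO over WT log2 ratio below. The zone bars of 11 genes exceed 1 in both libraries and end at Cyp2c70, while the library ratio is above 0 only for the neighbours Cyp2c38 and Cyp2c39; the Cyp2c40 bar of HKO rests on 1 periportal UMI.

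Upstream regions of the steepest and the flat Cyp2c gene, and of Cyp2e1 and the periportal Cyp2f2, are shown to set the contrast in zone beside the sequence. They are the 250 bases before the RefSeq start on GRCm38.p6, with capitals for TATAAA boxes, for CTTTGA, the core letters of the TCF/LEF factors of Wnt signalling, and for CAAAGTCCA, a site of HNF4. Either strand was searched.
Cyp2c38 (chr19:39463076-39463325, minus strand): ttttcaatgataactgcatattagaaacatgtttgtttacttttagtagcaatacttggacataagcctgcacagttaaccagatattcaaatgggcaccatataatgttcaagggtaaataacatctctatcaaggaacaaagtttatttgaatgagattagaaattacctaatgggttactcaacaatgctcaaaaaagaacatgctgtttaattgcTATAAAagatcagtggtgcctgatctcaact
Cyp2c70 (chr19:40187287-40187536, minus strand): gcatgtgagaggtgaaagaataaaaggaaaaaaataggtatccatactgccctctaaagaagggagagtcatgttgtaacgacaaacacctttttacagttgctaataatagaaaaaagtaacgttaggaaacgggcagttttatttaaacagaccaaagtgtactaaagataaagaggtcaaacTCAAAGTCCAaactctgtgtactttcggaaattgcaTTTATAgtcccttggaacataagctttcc
Cyp2e1 (chr7:140763569-140763818, plus strand): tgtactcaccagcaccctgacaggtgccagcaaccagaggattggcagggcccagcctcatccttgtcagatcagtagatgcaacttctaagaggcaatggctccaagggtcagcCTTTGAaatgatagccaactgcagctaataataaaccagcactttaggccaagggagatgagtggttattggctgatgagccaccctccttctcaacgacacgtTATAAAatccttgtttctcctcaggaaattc
Cyp2f2 (chr7:27119705-27119954, plus strand): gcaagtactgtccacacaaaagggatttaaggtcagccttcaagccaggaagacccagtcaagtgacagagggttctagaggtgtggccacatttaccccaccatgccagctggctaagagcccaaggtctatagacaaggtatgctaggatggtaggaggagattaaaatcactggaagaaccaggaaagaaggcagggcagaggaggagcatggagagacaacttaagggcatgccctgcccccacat
Cyp2c70 holds CAAAGTCCA, whose letters overlap a CTTTGA on the other strand, and Cyp2e1 holds CTTTGA and TATAAA. Among the 33 of 37 genes with a RefSeq promoter, read from 250 bases before to 50 after the start, TATAAA was in 21, or 63.6%, against 13.6% of all 32851 promoters. CTTTGA was in 10 (30.3%, against 16.003%), and in 3 of the 13 promoters of genes pericentral in both libraries. CAAAGTCCA was in 6 (18.2%, against 0.475%): Cyp2c40, Cyp2c67, Cyp2c68, Cyp2c69, Cyp2c70 and Cyp3a11, of which several are near-identical copies. AGGTCA, a nuclear receptor half-site, was in 10 (30.3%, against 16.3%), and GCGTG, the AhR core, in 4 (12.1%, against 32.4%) and not in the window of Cyp1a2. TTCNNNGAA (STAT5) and TTATGTAA (the D-box of Dbp and Tef) were in none of the 33 windows, against 8.30% and 0.938% of all promoters. A match is a run of letters and not a measured binding site.

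Outside Cyp2c, the 2-fold pericentral genes of both libraries were Cyp2a5, Cyp2a22 and Cyp2e1. Cyp2e1 went from 188 CPM to 743 CPM across the bins of HKO, 3.95 times (3.72 to 4.19), and from 842 CPM to 1970 CPM in WT, 2.34 times (2.28 to 2.40). Its level was lower in HKO in both outer bins, which were cut in each library on its own. The log2 ratios were -2.16 in the periportal and -1.41 in the pericentral bin. Cyp2a5 was 6.02 times higher pericentrally (4.55 to 8.10) in HKO and 3.35 times (2.76 to 4.08) in WT. Its pericentral levels were 48.8 CPM and 48.9 CPM, and its periportal levels 8.10 CPM and 14.6 CPM. Cyp2a22 had 17 and 8 UMIs in the outer bins of HKO, a ratio of 2.16 (0.883 to 5.78), and 10 and 1 in WT. Cyp1a2 was 2.24 times higher pericentrally (1.82 to 2.76) in HKO and 1.72 times (1.60 to 1.84) in WT.

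Cyp2f2 had the clearest periportal pattern. It went from 276 CPM to 42.8 CPM across the bins of HKO, 6.45 times higher periportally (5.72 to 7.31), and from 255 CPM to 61.0 CPM in WT, 4.17 times (3.81 to 4.58). The antisense gene Gm15883, which lies within Cyp2f2, had zone log2 ratios of -3.54 and -3.45. Reads of this pair too may be mixed. Cyp2a12 was 2.19 times higher periportally in HKO (1.94 to 2.48) and 1.76 times in WT (1.61 to 1.93). Cyp2u1 was 1.61 times (1.09 to 2.40) and 1.62 times (1.25 to 2.13), and Cyp3a13 1.52 times (1.44 to 1.60) and 1.36 times (1.29 to 1.44). Cyp2b10 had 8 UMIs in each outer bin of HKO, and 2 pericentral and 5 periportal UMIs in WT, with intervals that included 1.

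**Figure D5:**
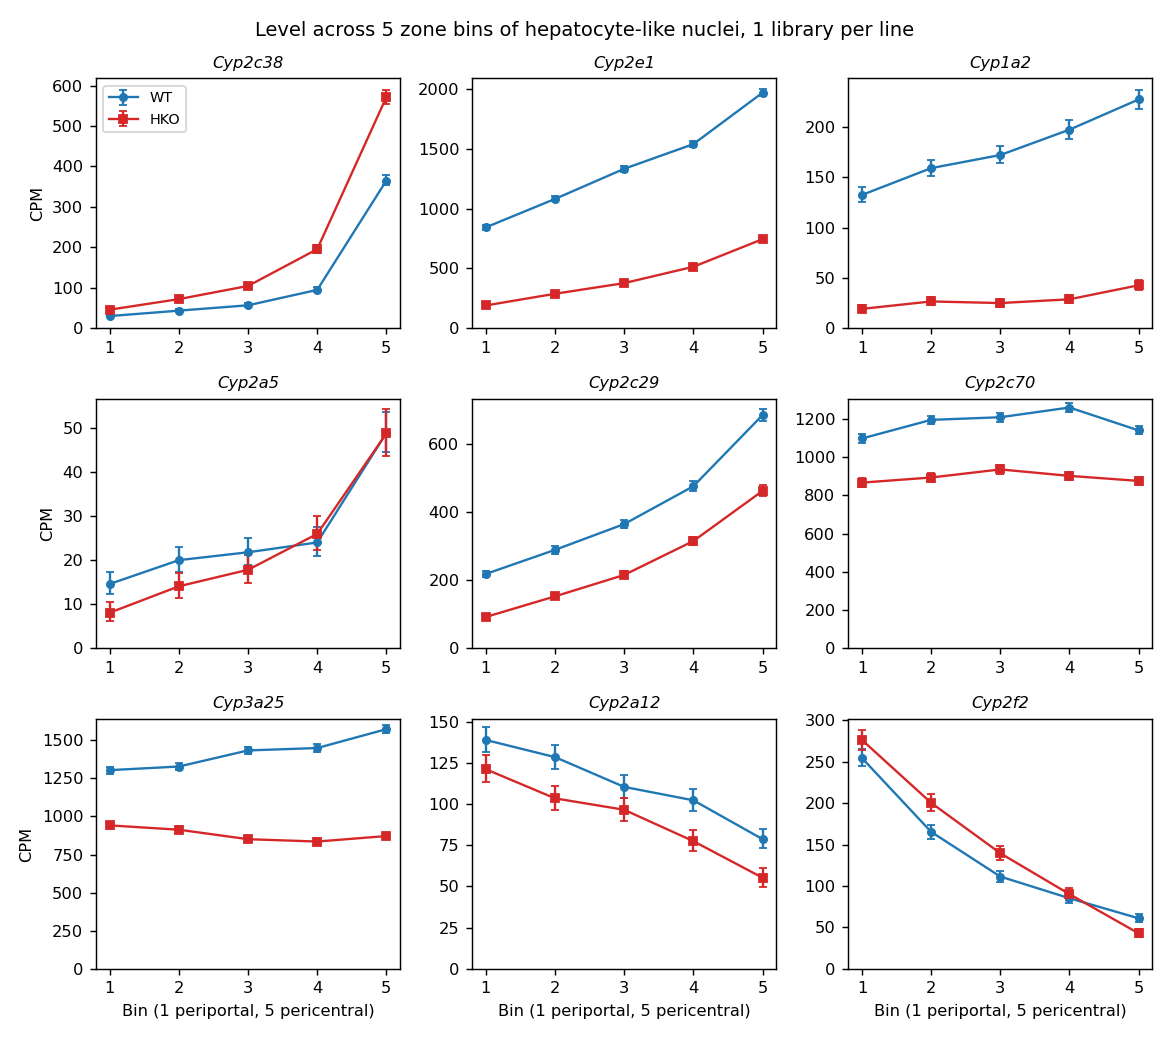
Level in CPM (y axis, from 0) of 9 P450 genes across bins of hepatocyte-like nuclei (x axis, 1 most periportal to 5 most pericentral) in WT (blue) and HKO (red), with 95% Poisson intervals as bars. Cyp2c38, Cyp2e1, Cyp1a2, Cyp2a5 and Cyp2c29 are highest in the pericentral bin of both libraries, Cyp2c70 is near level, and Cyp2a12 and Cyp2f2 are highest in the periportal bin.

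The Cyp2d, Cyp2j and Cyp3a genes were near level as counted: no member of these subfamilies passed 2-fold in either library. Free RNA present in both outer bins brings any zone ratio nearer to 1, and how far it did so here was not tested. Cyp2d9 was 1.24 times higher pericentrally in HKO (1.16 to 1.32) and 1.46 times in WT (1.39 to 1.54). Cyp2d26 was higher periportally, 1.45 times (1.34 to 1.57) and 1.16 times (1.10 to 1.22), and so was Cyp2j5, 1.43 times (1.35 to 1.51) and 1.13 times (1.09 to 1.17). Cyp3a11 was 1.78 times higher pericentrally in HKO (1.67 to 1.89) and 1.31 times in WT (1.27 to 1.36). Cyp2r1 was 1.78 times higher pericentrally in HKO (1.35 to 2.35), while its WT ratio of 1.10 (0.922 to 1.31) included 1. Cyp2a4 had no UMI in either outer bin of HKO and gives no zone there; in WT it was 1.60 times higher periportally (1.21 to 2.13). Across the 28 genes of at least 1000 UMIs, mean zone and library ratio gave r = -0.019, as a description.

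Among genes that serve the P450 enzymes, 6 electron donors and haem-binding partners had a median log2 ratio of -0.51, with 5 below 0. None of them was 2-fold lower, against 6.59% of all genes. The exception was 1 gene at least 2-fold higher in HKO, against 5.03%. Por, the P450 oxidoreductase, had 949.8 CPM in HKO against 425 CPM in WT, a ratio of 2.24 (2.20 to 2.28), and Pgrmc1, a haem-binding partner, had 69.1 CPM and 116 CPM. The 12 genes of haem synthesis and breakdown had a median log2 ratio of -0.01. At least 2-fold higher was 1, and none was at least 2-fold lower, against 5.03% and 6.59% of all genes. The higher gene was Alas1, the rate-limiting enzyme of haem synthesis, with 1305 CPM and 362 CPM, a ratio of 3.60 (3.54 to 3.67).

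Among 26 receptors and transcription factors that act on P450 genes, some as repressors, 5 were at least 2-fold higher in HKO, against 5.03% of all genes. At least 2-fold lower were 2, against 6.59%. Nr1i3, which encodes CAR, had 569 CPM in HKO against 255 CPM in WT, and the D-box factor Tef had 163 CPM and 71.6 CPM. The repressor Nr0b2 (SHP) had 5.66 CPM and 76.4 CPM, 13.5 times higher in WT (11.8 to 15.6), and the D-box repressor Nfil3 26.3 CPM and 58.3 CPM. Ahr had a log2 ratio of -0.03. Of 9 P450 genes known as CAR or PXR targets, all of them members, 1 was at least 2-fold higher (Cyp2b10, not at clustering resolution 1), against 5.03% of all genes, and 3 at least 2-fold lower (Cyp2c50, Cyp3a11 and Cyp2c37), against 6.59%. Of 9 regulators of sex-dependent liver genes, 2 were at least 2-fold higher, against 5.03% of all genes, and 0 lower, against 6.59%. The higher ones were Cux2, a female-predominant repressor, with 93.6 CPM and 2.67 CPM, and Trim24, with 479 CPM and 127 CPM. Of 9 P450 genes known as female-predominant, 3 reached the minimum, and only Cyp2a4 among those passed 2-fold, downward.

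P450 genes of the other families did not share the downward shift of the median. Of 38, 26 reached the minimum, with a median log2 ratio of 0.12. At least 2-fold higher in HKO were 5, against 5.03% of all genes, and at least 2-fold lower 2, against 6.59%. Cyp7a1, the rate-limiting enzyme of bile acid synthesis, had 286 CPM in HKO against 69.4 CPM in WT. Cyp4a10, a fatty acid hydroxylase, had 34.5 CPM and 3.46 CPM, and Cyp26a1, which degrades retinoic acid, had 1.34 CPM and 22.2 CPM. The difference between the families was not tested.

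The 21 members under the minimum ran from 44 UMIs over both libraries down to 0. Just inside it was Cyp2b10, with 71 UMIs, and just outside were Cyp2g1 and Cyp2j11, with 44 each, and Cyp2d12, with 39. They include Cyp3a44 with 31 UMIs, Cyp2b13 with 15 and Cyp2b9 with 9, all known as female-predominant. Cyp2j12 and Cyp2w1 had none. The genes lie in clusters: 15 Cyp2c genes on chromosome 19, 14 of them together, 8 Cyp2d genes on chromosome 15, 8 Cyp2j genes on chromosome 4, 6 Cyp3a genes together on chromosome 5 and 13 genes of several Cyp2 subfamilies on chromosome 7. In the chromosome 7 cluster the 6 measured genes had library log2 ratios from -7.51 to 1.68 and zone patterns of both directions, and in the chromosome 4 cluster the 4 measured genes were all lower in HKO.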

How the data were processed

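The deposited values are raw UMI counts per gene and barcode, not normalized, per the file headers, which name Cell Ranger 5.0.0; the submitters' processing notes also name STAR, Seurat 3.2.0 and GRCm38. How strand and multiply matching reads were handled is not stated in these sources. The labels' protocol describes total RNA although the molecule is nuclear RNA, so how nuclei were isolated is not given.

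The groups come from the sample titles. The members, gene lists and tests were chosen with earlier results of these data known. A minimum of 500 genes and a limit of 10% mitochondrial UMIs left 14902 of the 14912 HKO barcodes and 14515 of the 14701 WT barcodes, from libraries of 61123904 and 64609301 UMIs. Both libraries were clustered together (scanpy 1.11.5, 2000 variable genes without Cyp1 to Cyp3, 30 components, 15 neighbours, leidenalg 0.10.2, resolution 0.5), and clusters were named from 3 or more markers, hepatocyte-like ones also by the lack of other markers. No doublet caller was run.

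Counts were summed per library and class. Ratios carry exact conditional intervals, levels exact Poisson intervals and shares Clopper-Pearson intervals, at 95%. Log2 ratios add 0.5 counts, and 2-fold means a log2 ratio of at least 1 or at most -1. Named in full were the 8 highest and 8 lowest library ratios, the 6 most pericentral and 6 most periportal genes and the gene of most UMIs per subfamily, with up to 4 genes of each other list. The zone score was the mean z of pericentral minus periportal landmarks after thinning to 2000 UMIs, which left out 982 nuclei in HKO and 202 in WT. In HKO 892 nuclei and in WT 1229 lay within 0.1 SD of an outer limit between the 5 zone bins. Functions were tested on simulated data. Of the 27998 genes, 27645 matched GENCODE vM21 by identifier, and coordinates are from it. TMM factors came from edgeR 4.0.16 in R 4.3.3.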

Additional observations from a re-analysis of the deposited data

Results flagged for a closer look

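Cyp3a25, a steroid and drug hydroxylase of the Cyp3a cluster, had zone ratios on opposite sides of 1 in the libraries. In HKO the pericentral bin had 871 CPM and the periportal bin 941 CPM, a log2 ratio of -0.11, and in WT they had 1573 CPM and 1304 CPM, a log2 ratio of 0.27. Both counting intervals excluded 1, at 0.894 to 0.958 in HKO and 1.18 to 1.24 in WT, and the log2 ratios differ by 0.38. The difference was not tested, since each group has 1 library.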

How the results depend on the processing

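Counts of genes past 2-fold between the libraries stayed within 1.5 times of the values given (3 higher, 11 lower) under median ratio and TMM scaling, equal weight per nucleus, a minimum of 1000 genes, nuclei of at least 2000 UMIs, without the deepest 5% of nuclei, at clustering resolution 1 and over all nuclei. At resolution 1, 2 were higher, since Cyp2b10 went from 1.46 to 0.76. TMM and median ratio scaling shifted the median of all genes by -0.14 and -0.13, and then 15 and 14 genes were 2-fold lower, among them the same 11, with 8 genes above 0 under both. Only 7 WT nuclei had no mitochondrial UMI, against 1003 in HKO. In these, 22 genes were 2-fold lower, as were 56.9% of all genes, whose median was -1.33, and Cyp2b10, Cyp2a22 and Cyp2c39 reversed, to -3.80, -4.46 and -1.15, so few nuclei set these values. Among the 28 genes of at least 10 CPM on average 0 were 2-fold higher, against 3.14% of all genes at that level. The number lower was 9, against 4.95%. Cyp2c39, Cyp2a22 and Cyp2b10, the genes higher in the main result, all lay under that level. With a minimum of 1 UMI 7 of 54 genes were higher, against 10.6%. In endothelial-like nuclei, an alternative chosen after seeing the data, 1 was 2-fold higher and Cyp2b10 was at -0.20.

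For zone, 9 genes were 2-fold pericentral in WT and 9 in both libraries, and 1 periportal in WT, among genes of at least 10 CPM. Without the most abundant landmark of each list 1 was periportal in WT, and at resolution 1, where fewer nuclei were named hepatocyte-like, 4 were periportal in HKO. Of 370 zone ratios of single genes recomputed, 85 moved beyond their counting interval (65 of the 165 of 2-fold size or more) and 0 reversed; of 407 library ratios, 163 moved and 4 reversed. The summed level in other classes of HKO was 87.4%, 83.5% and 76.6% of the hepatocyte-like level in endothelial-, macrophage- and stellate-like nuclei at resolution 1. No paired analysis was possible because each group has 1 library. Depth limits Cyp2a22, Cyp2b10, Cyp2c40, Cyp2c69 and Cyp2d11, each under 250 UMIs over both libraries.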
